A study of Mus musculus with 16 samples.

Results

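Liver RNA of 16 female C57Bl6/J mice was examined for the response to iodomethylcholine (IMC) that the pair-fed and the ethanol-fed animals had in common. The mice were young adults, with 1 mouse per library and 4 libraries in each of 4 groups, Pair Vehicle, Pair IMC, EtOH Vehicle and EtOH IMC. All groups received a liquid diet of the Lieber-DeCarli type, in which the EtOH groups had ethanol and the Pair groups had maltose dextrin of equal calories, and IMC was mixed into the diet of both IMC groups. No transgene, deletion or other allele is given for any group. Diet intake, which the study followed in these mice, was not used here, so that an effect of IMC and an effect of the amount eaten cannot be told apart. The value examined for each gene is the mean of 2 differences, Pair IMC minus Pair Vehicle and EtOH IMC minus EtOH Vehicle, on the scale log2(value + 1), where a value is the normalized read count of a gene in a library. In the numbering of the libraries, Pair IMC and EtOH Vehicle hold numbers 1 to 8 and Pair Vehicle and EtOH IMC hold numbers 9 to 16, so that a shift between low and high numbers enters the differences of the diets with opposite signs and cancels in their mean. Of 24082 genes in the table, 12535 had 10 or more normalized reads in 4 or more libraries and were tested, and the other 11547 were left out. A gene was called at an adjusted p-value under 0.05 in limma, and was termed consistent when, besides, each IMC library lay beyond each Vehicle library in the same direction within both diets.

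IMC is a choline analog that blocks the choline TMA lyase of gut bacteria, the enzyme that cleaves dietary choline to trimethylamine (TMA). TMA reaches the liver by the portal vein and is oxidized there to trimethylamine N-oxide. The liver also makes cholesterol through the mevalonate pathway under control of the transcription factor SREBP2, detoxifies electrophiles through enzymes controlled by NRF2, answers interferons with antiviral and antigen-presenting proteins, and in rodents makes a set of secreted and metabolic proteins whose levels differ between the sexes under control of growth hormone.

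The libraries held 9632659 to 12601199 reads on genes, of which Alb, the albumin gene, took 6.74% to 13%. The tissue label was checked against 10 hepatocyte markers, of which 1 was higher (14.2% of all genes) and 1 lower (14%) with IMC. Their summed value was 1074615 to 1695517 in Pair Vehicle, 1527754 to 1643624 in Pair IMC, 1127760.1 to 1287661 in EtOH Vehicle and 1062285 to 1359130.4 in EtOH IMC. None of 13 Kupffer cell and macrophage markers tested and none of 10 sinusoidal endothelial markers were called in either direction under the averaged contrast. Of 11 stellate cell and fibroblast markers 5 were lower (14% of all genes), with a summed value of 4317 to 5889.9 in Pair Vehicle, 4209 to 5273 in Pair IMC, 6428 to 7779 in EtOH Vehicle and 3817 to 5251 in EtOH IMC, and the other 6 were not called. With ethanol feeding alone 5 of the 11 were called lower and with pair feeding alone none, and for 3 the diets differed. No marker was called of 6 bile duct, 3 neutrophil and 2 adipocyte markers tested. Of 10 periportal markers 1 was higher (14.2% of all genes) and 1 lower (14%). Among 5 red cell, 2 pancreatic acinar and 5 intestinal markers tested 2, 2 and 1 were lower (14% of all genes). Of the pancreatic markers 5 of 9, and of the intestinal markers 2 of 8, were at 0 in each library. In bulk tissue, fewer cells of a type and less RNA per cell cannot be told apart.

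With IMC, 3534 genes (28.2% of the genes tested) differed when averaged over the diets, 1781 of them higher (14.2%) and 1753 lower (14%). The median change was 0.33 among the higher genes and -0.46 among the lower genes on the log2 scale, against a median of -0.0048 over all genes, and 285 genes changed by at least 2-fold, 96 upward and 189 downward. The diets pointed the same way for 3452 of the called genes and opposite ways for 82. A call on the mean of both diets favours genes with equal signs by construction. Among all genes tested, called or not, 67.1% had equal signs. Consistent change, with no overlap of IMC and Vehicle libraries in either diet, was found for 620 genes (4.95%), 296 higher (2.36%) and 324 lower (2.58%). Of the 620 genes, 5 also passed a test of the difference between diets, and 105 changed by at least 2-fold.

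The diets were then set side by side, since they share no libraries. Of all genes tested, 67.1% had the same sign in both diets. In pair-fed libraries alone 535 genes were higher (4.27%) and 643 lower (5.13%), and 88.4% of these 1178 genes had the same sign in ethanol-fed libraries, where 49.6% of them were also called in that direction. In ethanol-fed libraries alone 1321 genes were higher (10.5%) and 1396 lower (11.1%), and 84.8% of these 2717 genes had the same sign in pair-fed libraries, where 21.5% of them were also called. Regardless of the test, the IMC and Vehicle libraries of the pair-fed animals did not overlap for 7.40% of genes upward and 6.85% downward, and those of the ethanol-fed animals for 12.6% and 12.8%. Most genes called in one diet thus had the same direction in the other. The IMC effects of the diets differed for 138 genes (1.10%) at an adjusted p-value under 0.05 in limma, and this difference cannot be told apart from the numbering of the libraries.

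Among consistent genes with a mean value of at least 50, the largest rises were in Csad, which encodes the enzyme that makes hypotaurine for taurine synthesis, and Tuba8, an alpha-tubulin. Csad (ENSMUSG00000023044, chr15:102176999-102204724, minus strand) had values of 550.2, 575, 881 and 1482 in Pair Vehicle, 5796, 8156, 5359.6 and 6524 in Pair IMC, 1559, 994, 1112 and 644 in EtOH Vehicle and 2319.9, 2490.1, 3809.9 and 3039.9 in EtOH IMC. The lowest IMC value was 5359.6 against a highest Vehicle value of 1482 with pair feeding, and 2319.9 against 1559 with ethanol feeding. Csad was 4.7-fold higher on average (log2 change 2.23 ± 0.20 SE, adjusted p = 1.83e-06, limma), with log2 changes of 2.99 in the pair-fed and 1.48 in the ethanol-fed animals. Tuba8 (ENSMUSG00000030137, chr6:121210696-121226854, plus strand) had values of 10.4, 11, 18.7 and 25.7 in Pair Vehicle, 100.1, 144, 104 and 49.4 in Pair IMC, 21, 49.1, 55.3 and 49.5 in EtOH Vehicle and 143, 95.3, 151 and 164 in EtOH IMC. Within each diet the groups of Tuba8 did not overlap, with Pair IMC library 8, at 49.4, closest to the Vehicle values of its diet. Tuba8 rose (log2 change 2.11 ± 0.24 SE, adjusted p = 1.61e-05, limma). The next rises were in Spaca6, a sperm acrosome protein gene (log2 1.70, adjusted p = 4.81e-06), in Mup20, which encodes a major urinary protein (log2 1.70, adjusted p = 3.25e-07), and in Gstp1, a glutathione S-transferase of the pi class (log2 1.68, adjusted p = 3.25e-07). Epb41l1, a membrane skeleton protein gene, rose (log2 1.67, adjusted p = 2.85e-06), Ephx1, microsomal epoxide hydrolase (log2 1.60, adjusted p = 3.74e-06), and Cyp4a31, of a family that hydroxylates fatty acids (log2 1.48, adjusted p = 0.00033). The other 4 were Serpina7, which encodes thyroxine-binding globulin (log2 1.41, adjusted p = 0.000248), Fst, the activin antagonist follistatin (log2 1.40, adjusted p = 8.84e-05), Unc13b, a vesicle priming protein gene (log2 1.31, adjusted p = 1.42e-05), and Gstm1, a mu-class glutathione S-transferase (log2 1.16, adjusted p = 3.55e-05).

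The largest falls were deeper than the largest rises. Cyp3a16 (ENSMUSG00000038656, chr5:145436309-145469723, minus strand), a female-biased cytochrome P450 of mouse liver, had values of 5008, 2729, 3979 and 3169 in Pair Vehicle, 258, 113, 344 and 425 in Pair IMC, 1480, 4188, 3901 and 2952 in EtOH Vehicle and 48.9, 39.9, 5.31 and 0 in EtOH IMC. The lowest Vehicle value was 2729 against a highest IMC value of 425 with pair feeding, and 1480 against 48.9 with ethanol feeding, where 1 IMC library had no read. Cyp3a16 fell (log2 change -5.96 ± 0.60 SE, adjusted p = 4.55e-06, limma), and the log2 change was -5.54 with a pseudocount of 5 and -6.41 with one of 0.1 in place of 1. Cyp3a41b fell (log2 -4.01, adjusted p = 2.44e-05), as did Cyp3a44 (log2 -2.52, adjusted p = 9.04e-05). In all, 6 of 8 Cyp3a genes were lower (14% of all genes) and 1 higher (14.2%). The reads of close copies such as Cyp3a41a and Cyp3a41b may be split between them. Falls in genes of the major urinary proteins were found for Mup15 (log2 -4.13, adjusted p = 3.25e-07), Mup10 (log2 -3.96, adjusted p = 3.25e-07), Mup17 (log2 -3.83, adjusted p = 4.38e-07) and Mup2 (log2 -3.33, adjusted p = 3.25e-07). Sult2a8, a sulfotransferase, followed (log2 -3.48, adjusted p = 7.87e-06), and A1bg, a plasma glycoprotein gene (log2 -2.86, adjusted p = 0.000387). The list of 12 closed with Gbp10, an interferon-inducible GTPase (log2 -2.56, adjusted p = 2.92e-06), Serpinb1a, an inhibitor of neutrophil proteases (log2 -2.25, adjusted p = 1.08e-05), and Car3, carbonic anhydrase 3 (log2 -2.06, adjusted p = 1.19e-05). Car3 (ENSMUSG00000027559, chr3:14863512-14872523, plus strand) was among the genes with the highest values of the 24, with 20741, 13013, 14452 and 11488 in Pair Vehicle, 8928, 2558, 3344 and 7675 in Pair IMC, 23353, 23046, 21282 and 21179 in EtOH Vehicle and 2729.5, 6246, 3224 and 3793 in EtOH IMC. No Car3 value of an IMC library reached the lowest Vehicle value of its diet. Of these 24 genes, only Mup15 also passed the test of the difference between diets, at -2.46 for ethanol-fed minus pair-fed (adjusted p = 0.0465, limma).

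**Figure D1:**
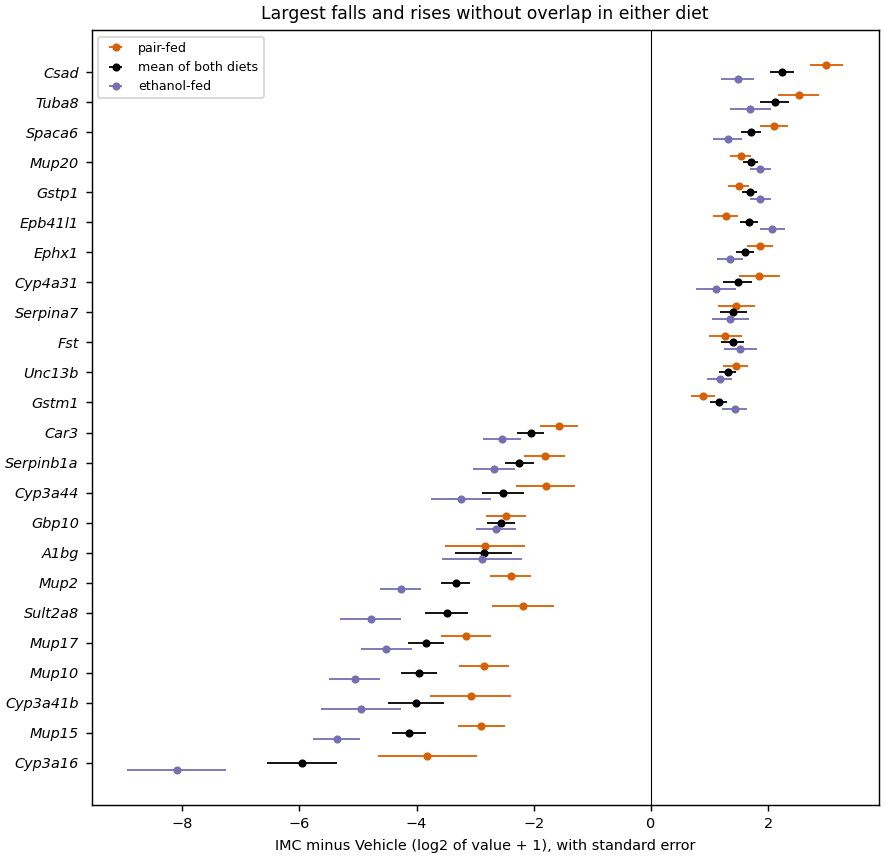
The 12 largest rises and 12 largest falls among consistent genes with a mean value of at least 50, as IMC minus Vehicle on the log2(value + 1) scale for pair-fed libraries (orange), ethanol-fed libraries (purple) and their mean (black), with standard errors. By the definition of a consistent gene each pair of diets lies on the same side of 0, and the means range from -5.96 for Cyp3a16 to 2.23 for Csad.

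Cholesterol synthesis was the only one of 43 gene lists in which each member was called in the same direction. All 25 genes tested were lower with IMC, against 14% of all genes, with changes from -0.34 to -1.65 and a median of -0.84. All 25 were also below 0 within each diet, 16 of them past the threshold with pair feeding (5.13% of all genes) and 20 with ethanol feeding (11.1%), and none differed between diets. Nevertheless only 7 of the 25 were consistent (2.58% of all genes were consistent and lower), and Pair IMC library 8 lay close to the Vehicle libraries. Relative to the Pair Vehicle mean, the median of the 25 genes was -0.80, -1.23 and -1.0 in Pair IMC libraries 2, 4 and 6 but -0.23 in library 8, and the Pair Vehicle libraries themselves ranged from -0.36 to 0.32. In ethanol-fed animals the medians ranged from -1.06 to -0.76 in EtOH IMC and from -0.33 to 0.24 in EtOH Vehicle libraries.

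The members that fell lie along the whole pathway, from HMG-CoA to the sterols. Hmgcs1 (ENSMUSG00000093930, chr13:119690379-119708260, plus strand), whose product makes HMG-CoA, had values of 7694, 9656, 4638 and 8762 in Pair Vehicle, 3368, 2526, 2302 and 6543 in Pair IMC, 7941, 7921, 10662 and 10572 in EtOH Vehicle and 3571, 3072, 2999.7 and 2706 in EtOH IMC. Here library 8, at 6543, exceeded the lowest Pair Vehicle library, at 4638, while the groups of the ethanol diet did not overlap. Hmgcs1 fell (log2 change -1.36 ± 0.19 SE, adjusted p = 6.67e-05, limma). Mvk (ENSMUSG00000041939, chr5:114444269-114460591, plus strand), mevalonate kinase, had values of 204, 262, 214 and 344 in Pair Vehicle, 99.1, 59.3, 79.7 and 164 in Pair IMC, 306, 369, 408 and 490.5 in EtOH Vehicle and 179, 103, 138 and 166 in EtOH IMC. No value of Mvk overlapped within a diet, and the changes were -1.41 in the pair-fed and -1.43 in the ethanol-fed animals, with a difference of -0.02 (95% interval -0.77 to 0.73). Msmo1 (ENSMUSG00000031604, chr8:64718139-64733792, minus strand), a sterol C4-methyl oxidase, had values of 2325, 3167, 2045 and 3861 in Pair Vehicle, 1065, 419.7, 616 and 1854 in Pair IMC, 2455, 3326, 3124 and 4541 in EtOH Vehicle and 1584, 960.1, 1011 and 891 in EtOH IMC. Msmo1 was 3.15-fold lower (log2 change -1.65 ± 0.24 SE, adjusted p = 0.000108, limma), again with library 8 highest among the Pair IMC values. Mvd, mevalonate diphosphate decarboxylase, fell (log2 -1.61, adjusted p = 3.75e-05), Fdft1, squalene synthase (log2 -0.97, adjusted p = 6.05e-05), and Srebf2, which encodes SREBP2 itself (log2 -0.67, adjusted p = 3.4e-05).

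The promoter of Hmgcs1 is shown because it was the only matched member of the list with the searched letters of a sterol response element, TCACNCCAC on either strand between 250 bases before and 50 bases after the start of a RefSeq gene on GRCm38.p6. Of the 25 genes 17 had a promoter in the RefSeq set, and 1 of these (5.88%) held the letters. So did 1.53% of tested genes with a RefSeq promoter, and 1.24% of all 32851 promoters. The 90 bases printed lie on the plus strand at chr13:119690173-119690262, upstream of the RefSeq gene start, with the match in capitals.
Hmgcs1: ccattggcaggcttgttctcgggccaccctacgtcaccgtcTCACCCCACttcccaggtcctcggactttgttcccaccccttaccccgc
Of the tested genes with the letters in a promoter, 24.8% of 149 were lower with IMC and 10.7% higher, against 13.8% and 14.5% of 9618 tested genes without them. A match of letters does not show a bound site.

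**Figure D2:**
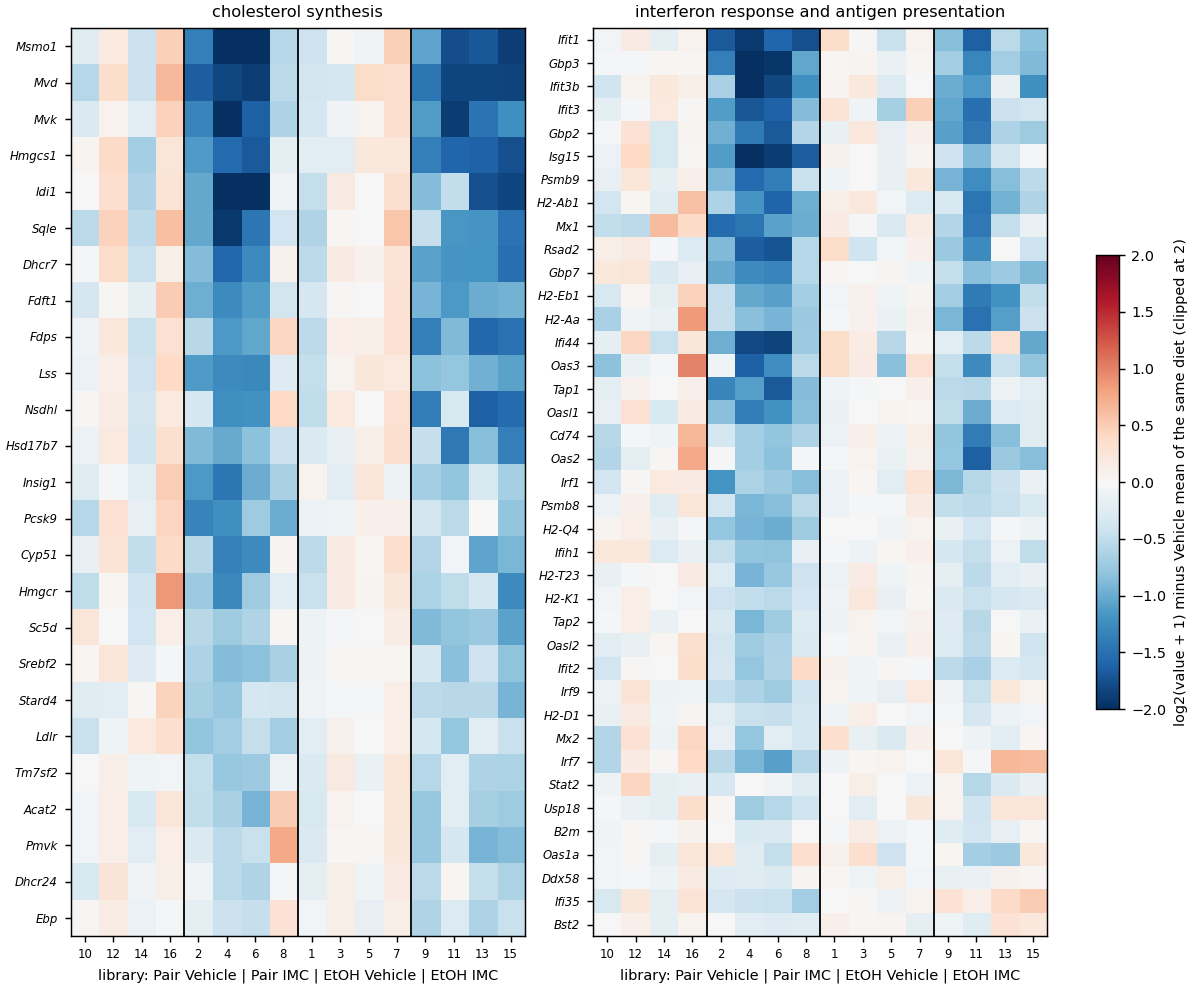
Each column is a library and each row a gene of the cholesterol synthesis list (left, 25 genes) or the interferon response and antigen presentation list (right, all but 1 of 40 genes), coloured by log2(value + 1) minus the mean of the 4 Vehicle libraries of the same diet, clipped at 2. Pair IMC library 8 is paler than the other Pair IMC libraries on the left, and on the right Pair IMC libraries 4 and 6 are the darkest.

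Interferon-stimulated genes and genes of antigen presentation were lower with IMC as well. Of 40 members tested, 30 were lower (14% of all genes) and none higher, 12 of them consistent (2.58% of all genes), with a median of -0.63 and a range from -1.35 to -0.07. The other 10 members did not pass the threshold, and 36 of 40 were below 0 in both diets. The fall was called for 27 members with pair feeding (5.13% of all genes) and for 16 with ethanol feeding (11.1%), and for 5 members the diets differed (1.10%). Ifit1 (ENSMUSG00000034459, chr19:34640871-34650009, plus strand), an RNA-binding antiviral protein gene, had values of 133, 154, 121 and 144 in Pair Vehicle, 41.9, 35.6, 45 and 40 in Pair IMC, 189, 151, 109.7 and 157 in EtOH Vehicle and 82.1, 47.2, 102 and 83.8 in EtOH IMC. The Pair IMC values lay within 35.6 and 45, far under the lowest Pair Vehicle value of 121, and in ethanol-fed animals the gap was narrow, from 102 to 109.7. Ifit1 fell (log2 change -1.35 ± 0.14 SE, adjusted p = 6.4e-06, limma). Gbp3 (ENSMUSG00000028268, chr3:142560026-142573209, plus strand), a guanylate-binding protein gene, had values of 317, 322, 334 and 331 in Pair Vehicle, 126, 80.3, 83.4 and 159 in Pair IMC, 226, 229.7, 200.3 and 226 in EtOH Vehicle and 136, 88.9, 135 and 119 in EtOH IMC. Gbp3 fell (log2 change -1.24 ± 0.13 SE, adjusted p = 4.81e-06, limma) without overlap in either diet, as did Gbp7 (log2 -0.89, adjusted p = 2.37e-05). Gbp10 (ENSMUSG00000105096, chr5:105215699-105239533, minus strand), which was not on the list and is of the same family, had values of 251, 251, 119 and 169 in Pair Vehicle, 50.5, 19.2, 18.7 and 64.7 in Pair IMC, 107, 91.4, 102 and 74.2 in EtOH Vehicle and 16.6, 9.98, 15.9 and 14.1 in EtOH IMC. Its lowest Vehicle value in each diet exceeded its highest IMC value, and it was 5.91-fold lower. Tap1, the peptide transporter of antigen presentation, fell (log2 -0.80, adjusted p = 3.75e-05), as did H2-Q4, a class Ib histocompatibility gene (log2 -0.51, adjusted p = 3.1e-05), and for both the fall was larger in pair-fed libraries, by 0.89 and 0.68 (adjusted p = 0.0462 and 0.0148, limma).

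Markers of immune cells were set beside this list. The summed value of 14 Kupffer cell and macrophage markers was 3116 to 8759 in Pair Vehicle, 3712 to 5378 in Pair IMC, 5798 to 7814 in EtOH Vehicle and 4285 to 6711 in EtOH IMC. For 9 T and NK cell markers, of which 1 was tested, the sum was 50.3 to 87.5 in Pair Vehicle, 35.6 to 47.7 in Pair IMC, 34.4 to 50.7 in EtOH Vehicle and 24.5 to 35 in EtOH IMC, and for 6 B cell markers, of which 3 were tested, it was 30.2 to 94.1 in Pair Vehicle, 34.3 to 47.1 in Pair IMC, 45.7 to 77.5 in EtOH Vehicle and 23.1 to 48.5 in EtOH IMC. No marker of these 3 lists was called, and none was at 0 in each library. The T and NK cell sums of Pair IMC all lay below those of Pair Vehicle, and those of EtOH IMC overlapped those of EtOH Vehicle. The part of these cells in the interferon result was not tested.

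Promoters of this list are shown because 16 of 32 members with a RefSeq promoter (50%) held the searched letters of an interferon-stimulated response element, GAAA, any 2 bases and GAAA on either strand, against 3.44% of all promoters and 3.86% of tested genes. Each stretch lies on the plus strand of GRCm38.p6 upstream of the RefSeq gene start, at chr19:34640764-34640853 for Ifit1, chr3:142559954-142560043 for Gbp3 and chr19:34607763-34607852 for Ifit3b, with the letters in capitals. Each holds 2 matches, and those of Gbp3 overlap.
Ifit1: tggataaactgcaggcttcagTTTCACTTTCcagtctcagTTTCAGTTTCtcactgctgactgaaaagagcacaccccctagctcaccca
Gbp3: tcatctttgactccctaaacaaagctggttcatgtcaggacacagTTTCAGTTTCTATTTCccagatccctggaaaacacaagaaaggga
Ifit3b: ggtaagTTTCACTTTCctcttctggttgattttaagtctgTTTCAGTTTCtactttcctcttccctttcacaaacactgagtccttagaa
Among the 16 members with the letters 11 were lower with IMC, with a median change of -0.85, and among the 16 members without them 13 were lower, with a median of -0.53. Over all tested genes, 21.0% of 377 genes with the letters and 13.7% of 9390 without them were lower.

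Genes under control of NRF2 encode enzymes of glutathione synthesis, conjugation and reduction of electrophiles, and most of them were higher. Of 31 members tested 20 were higher with IMC (14.2% of all genes) and none lower, 8 of them consistent (2.36% of all genes), with a median of 0.60. In pair-fed libraries 11 were called higher (4.27% of all genes) and in ethanol-fed libraries 20 (10.5%). Gclc (ENSMUSG00000032350, chr9:77754535-77794485, plus strand), the catalytic subunit of the enzyme that limits glutathione synthesis, had values of 3107, 1883, 2664 and 2659 in Pair Vehicle, 5046, 5871, 4960.2 and 3542 in Pair IMC, 3621, 3514, 3706 and 2717 in EtOH Vehicle and 6970, 6649, 10923 and 7116 in EtOH IMC. EtOH IMC library 13 stood above the other 3 of its group, and the lowest Pair IMC value, 3542, was close to the highest Pair Vehicle value, 3107. Gclc was 2.08-fold higher (log2 change 1.06 ± 0.13 SE, adjusted p = 2.37e-05, limma). Ephx1 (ENSMUSG00000038776, chr1:180976210-181020904, minus strand) had values of 1303, 1216, 1747 and 1693 in Pair Vehicle, 4767, 7057, 6249 and 3865 in Pair IMC, 4837, 4773, 5376 and 5217 in EtOH Vehicle and 9913, 8629, 18511 and 17118 in EtOH IMC. Within each diet the IMC values of Ephx1 were all above the Vehicle values. Ephx1, which also counts among the CAR and PXR targets below, was 3.04-fold higher (log2 change 1.60 ± 0.16 SE, adjusted p = 3.74e-06, limma). Gsr, glutathione reductase, rose (log2 0.62, adjusted p = 4.67e-06), Ugdh, which makes UDP-glucuronic acid (log2 1.16, adjusted p = 5.6e-07), and Aox1, aldehyde oxidase (log2 1.12, adjusted p = 7.58e-06). For both carbonyl reductases of the list the effect was larger in ethanol-fed libraries, by 1.01 for Cbr1 and 4.81 for Cbr3 on the log2 scale (adjusted p = 0.014 and 0.000352, limma). Cbr1 rose (log2 1.01, adjusted p = 2.34e-06), with log2 changes of 0.51 with pair feeding and 1.52 with ethanol feeding, and Cbr3 had mean values of 9.44 in Pair Vehicle, 6.31 in Pair IMC, 12.3 in EtOH Vehicle and 254 in EtOH IMC.

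The searched letters of an antioxidant response element were TGAC, any 3 bases and GCA on either strand. They were found for 2 of 27 members with a RefSeq promoter (7.41%), Pgd and Txnrd1, for 3.36% of tested genes with a RefSeq promoter, and in 3.04% of all promoters. Of tested genes with the letters 15.5% of 328 were higher with IMC, and of those without them 14.4% of 9439.

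Glutathione S-transferases, which conjugate glutathione to electrophiles, moved in both directions, with 7 of 22 higher (14.2% of all genes), 5 lower (14%) and 10 not called. Gstp1 (ENSMUSG00000060803, chr19:4035407-4037985, minus strand) had values of 1037, 969, 1139 and 1280.4 in Pair Vehicle, 2796, 3842, 3228 and 2666 in Pair IMC, 1768, 2211, 3192 and 2898 in EtOH Vehicle and 7997, 6719.7, 11345 and 10437 in EtOH IMC. The lowest IMC value was 2666 against a highest Vehicle value of 1280.4 with pair feeding, and 6719.7 against 3192 with ethanol feeding, and Gstp1 was 3.2-fold higher on average (log2 change 1.68 ± 0.13 SE, adjusted p = 3.25e-07, limma). Gsta1 rose (log2 1.93, adjusted p = 0.00333), with log2 changes of 0.61 with pair feeding and 3.25 with ethanol feeding, Gstm3 (log2 1.11, adjusted p = 0.00351) and Gstm4 (log2 0.42, adjusted p = 0.00617). Gstp2 rose (log2 1.12, adjusted p = 0.00554) at low levels, with a mean of 4.02 in Pair Vehicle and 26.9 in EtOH IMC. The reads of Gstp1 and Gstp2, and of members of the Gstm cluster, may be split between near-identical copies.

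**Figure D3:**
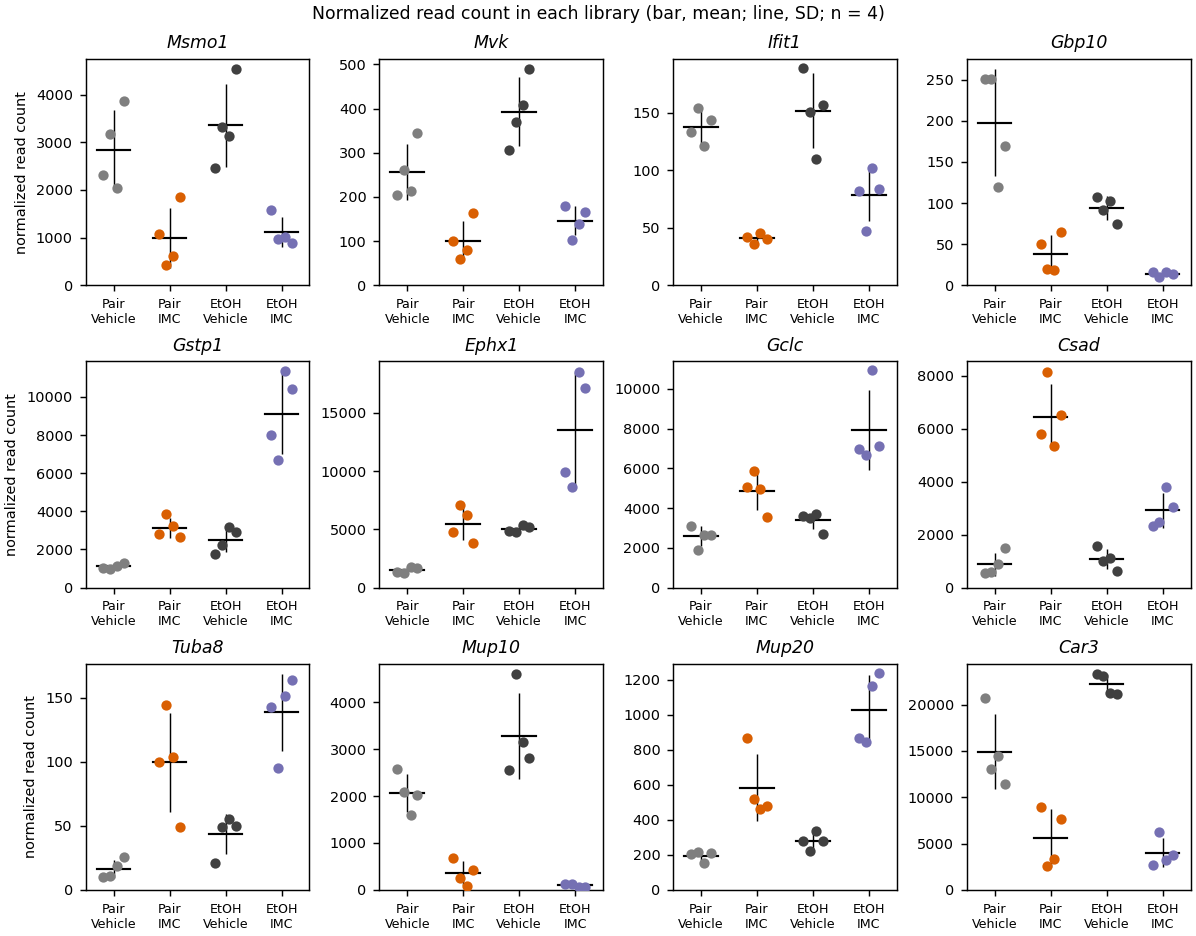
Normalized read count (vertical axes, starting at 0) of 12 genes in each of the 16 libraries by group, with the mean as a bar and the SD as a line (n = 4). All 12 are consistent genes (4.95% of the genes tested), so that by definition the 4 IMC libraries lie on one side of the 4 Vehicle libraries within each diet.

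In other lists of drug and xenobiotic metabolism some members rose and others fell, except for sulfotransferases and carboxylesterases, of which none were higher. Of 33 targets of the nuclear receptors CAR and PXR, 11 were higher (14.2% of all genes) and 10 lower (14% of all genes), with a median of -0.02. The highest change on this list was 1.60, that of Ephx1, which is given above with the NRF2 targets. Some genes are thus counted on several lists. Nr1i2, which encodes PXR, rose (log2 0.27, adjusted p = 0.00254), as did Gadd45b (log2 1.10, adjusted p = 0.00507). Cyp2b13 fell (log2 -1.32, adjusted p = 1.61e-05), as did Papss2, which makes the sulfate donor (log2 -0.95, adjusted p = 3.1e-05). In the Cyp2c family 5 of 14 were higher (14.2% of all genes) and 4 lower (14%). Cyp2c68 rose (log2 0.41, adjusted p = 0.000657), as did Cyp2c70 (log2 0.36, adjusted p = 0.00428), while Cyp2c54 fell (log2 -1.59, adjusted p = 0.000191), as did Cyp2c50 (log2 -0.59, adjusted p = 0.00382). Among UDP-glucuronosyltransferases 6 of 16 were higher (14.2% of all genes) and 6 lower (14%), with Ugt2b35 (log2 1.04, adjusted p = 4.41e-05), Ugt2b5 (log2 0.66, adjusted p = 0.000149) and Ugt2a3 (log2 -1.02, adjusted p = 3.38e-06). Genes of the Ugt1a cluster share their last exons, so that the split of reads among them is uncertain. Of the enzymes that conjugate sulfate, 8 of 15 sulfotransferases were lower (14% of all genes) and none higher, with a median of -0.97. Besides Sult2a8, Sult2a3 fell (log2 -1.84, adjusted p = 0.000482), Sult5a1 (log2 -1.87, adjusted p = 6.43e-05) and Sult1c2 (log2 -1.22, adjusted p = 1.33e-05). Of 12 carboxylesterases, which hydrolyse esters and lipids, 7 were lower (14% of all genes) and none higher. Ces3a fell (log2 -2.35, adjusted p = 0.000144), with log2 changes of -1.26 with pair feeding and -3.44 with ethanol feeding, as did Ces2e (log2 -1.01, adjusted p = 3.75e-05). In EtOH IMC library 11 Ces3a was at 1437, against 191, 246 and 348 in libraries 9, 13 and 15.

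Genes whose liver level depends on sex were among the deepest falls. Of 11 major urinary protein genes tested, 9 were lower (14% of all genes) and 1 higher (14.2%), with 8 falls (2.58% of all genes) and the rise (2.36%) consistent. The median was -3.18, or -3.12 with Mup11 set to the limit that 3 reads per library allow. These genes are close copies in a cluster on chromosome 4, so that reads may be split between them. Mup10 (ENSMUSG00000078680, chr4:60578260-60582199, minus strand) had values of 2575, 2081, 1593 and 2028 in Pair Vehicle, 678, 255, 85.3 and 423 in Pair IMC, 2556, 4589, 3151 and 2818 in EtOH Vehicle and 135, 128, 64.8 and 72.7 in EtOH IMC. The highest IMC value of Mup10 was 678 against a lowest Vehicle value of 1593 with pair feeding, and 135 against 2556 with ethanol feeding, and it was 15.5-fold lower (log2 change -3.96 ± 0.30 SE, adjusted p = 3.25e-07, limma). Mup20 (ENSMUSG00000078672, chr4:62050234-62054158, minus strand), the pheromone darcin, moved the opposite way, with values of 204, 217, 155 and 210.1 in Pair Vehicle, 868, 518, 465 and 481 in Pair IMC, 281, 225, 334 and 281 in EtOH Vehicle and 869.9, 847, 1163 and 1237 in EtOH IMC. Each IMC value of Mup20 exceeded each Vehicle value of its diet, and it was 3.24-fold higher (log2 change 1.70 ± 0.13 SE, adjusted p = 3.25e-07, limma). Of 23 genes known as female-biased in mouse liver, 15 were lower (14% of all genes) and 1 higher, with a median of -0.87. A1bg (ENSMUSG00000022347, chr15:60896859-60923012, minus strand) had values of 483, 1123, 594 and 3033 in Pair Vehicle, 196, 68.4, 71.2 and 388 in Pair IMC, 189, 88, 614 and 54.9 in EtOH Vehicle and 21.2, 34.5, 12.7 and 17.2 in EtOH IMC. A1bg varied widely among Vehicle libraries, from 483 to 3033 with pair feeding and from 54.9 to 614 with ethanol feeding, and its IMC values stayed below those of their diet. Hao2, a peroxisomal hydroxyacid oxidase, fell (log2 -1.56, adjusted p = 3.25e-07), as did Ntrk2, a neurotrophin receptor gene (log2 -2.17, adjusted p = 1.97e-05), both more in ethanol-fed libraries. Of 14 male-biased genes 3 were higher (21.4%, against 14.2% of all genes) and 5 lower (35.7%, against 14%), so that called members went both ways, with more of them lower. The lowest change on this list was -1.49, so that Mup10 and the other Mup genes named above with deeper falls were not on it. Selenbp2 fell (log2 -1.49, adjusted p = 0.000202), as did Elovl3 (log2 -1.34, adjusted p = 0.0136), whereas Gstp1 and Mup20 rose.

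In the growth hormone pathway, which sets these sex differences through STAT5, 6 of 13 genes were lower and 1 higher, against 14% and 14.2% of all genes. Ghr, the growth hormone receptor, fell (log2 -0.49, adjusted p = 0.000162), Igfals, the acid-labile subunit that binds IGF1 in plasma (log2 -0.77, adjusted p = 0.000144), and Igf1 (log2 -0.39, adjusted p = 0.00829). Prlr, the prolactin receptor, fell (log2 -0.51, adjusted p = 0.000155), and by 0.70 more in ethanol-fed libraries (adjusted p = 0.0404, limma). Stat5a was called lower (log2 -0.42, adjusted p = 0.029) but lost its call with terms for diet and IMC only, and without Pair Vehicle library 10 or 14, Pair IMC library 2 or 6, or EtOH Vehicle library 1 or 5 (highest adjusted p = 0.0609, limma).

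Genes of the translation machinery rose by small amounts. Of 85 cytosolic ribosomal protein genes 73 were higher (14.2% of all genes) and 1 lower, with a median of 0.36, and 80 were above 0 in both diets. Only 2 of the 85 were consistent (2.36% of all genes), and Pair Vehicle library 16 had a median 0.31 above the Pair Vehicle mean, as high as the Pair IMC libraries, which ranged from 0.19 to 0.30. In pair-fed libraries alone 2 of the 85 were called higher (4.27% of all genes), and in ethanol-fed libraries 66 (10.5%). Rplp0 (ENSMUSG00000067274, chr5:115559467-115563727, plus strand), a protein of the ribosomal stalk, had values of 2777, 3402, 3614 and 4141 in Pair Vehicle, 4542, 5108, 5157 and 4525 in Pair IMC, 3437, 3538, 3233 and 3281 in EtOH Vehicle and 5049, 5639.8, 5721 and 6763 in EtOH IMC. The IMC values were all above the Vehicle values of their diet, and Rplp0 rose (log2 change 0.63 ± 0.08 SE, adjusted p = 2.93e-05, limma). Factors of rRNA processing moved alike, with 48 of 81 higher (14.2% of all genes), none lower and 14 consistent (2.36%), at a median of 0.28. Ddx21 (ENSMUSG00000020075, chr10:62580251-62602281, minus strand), a nucleolar RNA helicase, had values of 476, 485, 543 and 522 in Pair Vehicle, 671, 770.1, 709.7 and 584 in Pair IMC, 493, 514, 519 and 445 in EtOH Vehicle and 844, 752, 790 and 740 in EtOH IMC. Its Pair IMC values, from 584 to 770.1, began just above the highest Pair Vehicle value, 543. Ddx21 rose (log2 change 0.55 ± 0.06 SE, adjusted p = 1.44e-05, limma). Gnl3, nucleostemin, rose (log2 0.68, adjusted p = 3.55e-05), as did Polr1a, the largest subunit of RNA polymerase I (log2 0.48, adjusted p = 3.3e-05), and Ftsj3 (log2 0.59, adjusted p = 1.54e-05). Dus1l, which the study names under RNA processing in general and not for rRNA, rose too (log2 0.72, adjusted p = 6.83e-06). In each alternative setting the median stayed above 0, between 0.31 and 0.41 for the ribosomal proteins and between 0.25 and 0.31 for the processing factors.

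The genes nearest to the enzyme reaction that IMC blocks were examined next. Of 19 genes of TMA oxidation, choline oxidation and the methionine cycle, 7 were lower and 1 higher, against 14% and 14.2% of all genes, and none was consistent, with a median of -0.10. Bhmt (ENSMUSG00000074768, chr13:93616675-93637961, minus strand), which remethylates homocysteine with betaine, had values of 30925, 36153, 27524 and 17717 in Pair Vehicle, 19341, 15468, 17987 and 44029 in Pair IMC, 66229.5, 66049.5, 63572 and 63313 in EtOH Vehicle and 25775, 29918, 7784 and 8742 in EtOH IMC. The ethanol-fed groups were far apart, whereas Pair IMC library 8, at 44029, was the highest pair-fed value. Bhmt fell (log2 change -1.20 ± 0.27 SE, adjusted p = 0.0037, limma), with log2 changes of -0.30 with pair feeding and -2.10 with ethanol feeding. Its neighbour Bhmt2 fell (log2 -0.43, adjusted p = 0.000397), and so did sarcosine dehydrogenase, Sardh (log2 -0.50, adjusted p = 0.000127). Fmo5 was the member that rose (log2 0.34, adjusted p = 0.0142), while Fmo1 was called lower (log2 -0.22, adjusted p = 0.0246) but not after quantile normalization or without Pair Vehicle library 16, Pair IMC library 4 or EtOH Vehicle library 3 (highest adjusted p = 0.104, limma). Members that did not pass the threshold were Chdh, choline dehydrogenase (log2 -0.02, adjusted p = 0.891), Mat1a, which makes S-adenosylmethionine (log2 -0.10, adjusted p = 0.527), Gnmt (log2 -0.13, adjusted p = 0.418) and Cbs (log2 0.11, adjusted p = 0.394). The count of 7 lower genes was 3 without EtOH Vehicle library 3 and 4 after quantile normalization. Taar5, the receptor for TMA, was not among the genes tested.

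Of 22 genes of de novo lipogenesis 10 were lower (14% of all genes) and 1 higher, and 4 differed between diets (1.10% of all genes). With pair feeding 2 were lower (5.13% of all genes) and 2 higher (4.27%), with ethanol feeding 14 were lower (11.1%) and none higher, and the median was 0.08 with pair feeding and -0.65 with ethanol feeding. Fads2, a fatty acid desaturase, fell (log2 -1.0, adjusted p = 1.71e-05), as did Srebf1, which encodes SREBP1 (log2 -0.51, adjusted p = 0.000308), with log2 changes of -0.79 with pair feeding and -0.23 with ethanol feeding. Elovl5, a fatty acid elongase, fell on average (log2 -0.62, adjusted p = 0.00116), with log2 changes of 0.09 with pair feeding and -1.34 with ethanol feeding. Lipid droplet proteins and lipases had 5 of 17 higher (14.2% of all genes) and 5 lower (14%). Abhd5, the coactivator of triglyceride lipase, rose (log2 0.35, adjusted p = 0.000437), as did Hsd17b13 (log2 0.51, adjusted p = 7.29e-05), while G0s2, an inhibitor of that lipase, fell (log2 -1.21, adjusted p = 0.00469), as did Pnpla3 (log2 -1.13, adjusted p = 0.000724).

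Genes of amino acid breakdown were lower in part, with 12 of 32 genes of the urea cycle and amino acid catabolism called lower and 2 higher, against 14% and 14.2% of all genes. Oat, ornithine aminotransferase, fell (log2 -1.03, adjusted p = 0.000303), Hpd, of tyrosine breakdown (log2 -0.65, adjusted p = 0.000112), Otc, ornithine transcarbamylase (log2 -0.50, adjusted p = 0.000166) and Bckdhb (log2 -0.49, adjusted p = 5.92e-05). Oat is also a pericentral marker, and of 10 pericentral markers 3 were lower (14% of all genes), with a summed value of 91689 to 116689 in Pair Vehicle, 72769 to 93762 in Pair IMC, 84437 to 108948 in EtOH Vehicle and 57109 to 84505 in EtOH IMC. Of 14 genes of ethanol and acetaldehyde metabolism 7 were lower (14% of all genes) and none higher. With pair feeding alone 1 of the 14 was called lower (5.13% of all genes), and with ethanol feeding alone 6 (11.1%). Cyp2e1, the ethanol-inducible cytochrome P450, fell (log2 -0.56, adjusted p = 0.00804), with log2 changes of -0.30 with pair feeding and -0.81 with ethanol feeding, and Aldh1b1, a mitochondrial aldehyde dehydrogenase (log2 -0.50, adjusted p = 0.000743). In EtOH IMC library 11 Cyp2e1 was at 51029.8, within the EtOH Vehicle values of 49949 to 56861. Libraries 9, 13 and 15 were at 21716 to 26721. Of 40 complement and coagulation genes 12 were lower (14% of all genes) and 1 higher, and the count of lower genes dropped to 8 without Pair IMC library 4. With pair feeding alone 1 of the 40 was called lower (5.13% of all genes), and with ethanol feeding alone 14 (11.1%). F11, coagulation factor XI, fell (log2 -1.07, adjusted p = 0.000219). C4b fell on average (log2 -0.54, adjusted p = 0.00188), with log2 changes of -0.27 with pair feeding and -0.81 with ethanol feeding.

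Stress pathways were higher in part. Of 31 genes of ATF4 and amino acid stress 10 were higher and 2 lower, against 14.2% and 14% of all genes. With pair feeding alone 3 were called higher (4.27% of all genes), and with ethanol feeding alone 9 (10.5%). The median of this list was 0.02 with pair feeding and 0.33 with ethanol feeding. Fgf21, a stress-induced liver hormone, rose (log2 1.77, adjusted p = 0.000692), with log2 changes of 1.84 with pair feeding and 1.71 with ethanol feeding, Aldh1l2 (log2 1.43, adjusted p = 0.001) and Mars, a tRNA synthetase gene (log2 0.59, adjusted p = 0.000223). Of 20 p53 targets 6 were higher (14.2% of all genes) and 3 lower (14%). With pair feeding alone 1 was called higher (4.27% of all genes), and with ethanol feeding alone 6 (10.5%). The p53 list had a median of 0.06 with pair feeding and 0.46 with ethanol feeding. Trp53inp1 rose (log2 1.07, adjusted p = 0.00112), Mdm2, the ubiquitin ligase of p53 (log2 0.46, adjusted p = 0.000224), and Bax (log2 0.66, adjusted p = 0.000188), mainly in ethanol-fed libraries. Cdkn1a, the cell cycle inhibitor p21, was called higher (log2 1.58, adjusted p = 0.0264) but lost its call without Pair Vehicle library 14 or 16, Pair IMC library 2 or 8, EtOH Vehicle library 3 or 7, or EtOH IMC library 9 or 15 (highest adjusted p = 0.0589, limma). Of 10 tubulins 5 were higher (14.2% of all genes) and none lower, led by Tuba8, then Tubb2a (log2 1.01, adjusted p = 0.000183) and Tubb4b (log2 0.67, adjusted p = 0.0001). Of hormone and cytokine receptors, Lepr, the leptin receptor, rose (log2 1.37, adjusted p = 8e-05), as did Il22ra1, a subunit of the interleukin-22 receptor (log2 1.14, adjusted p = 5.73e-05).

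**Figure D4:**
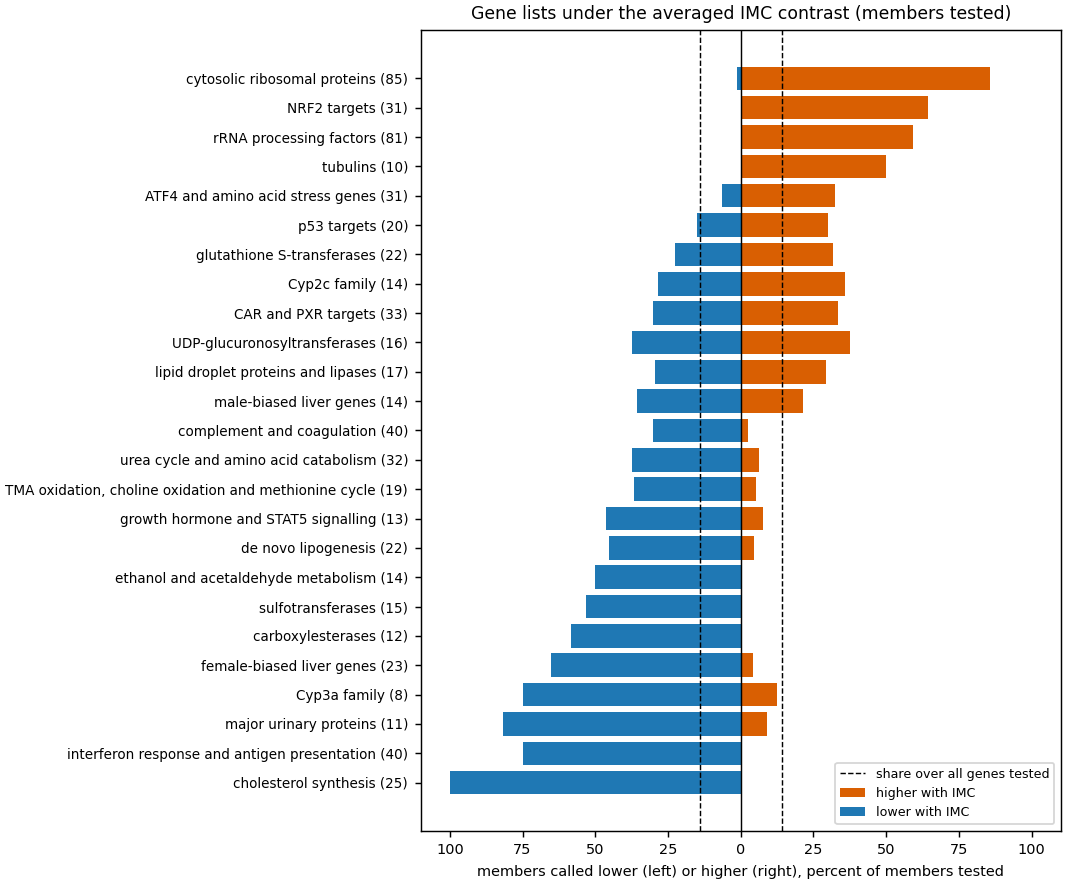
Share of the members tested (number in parentheses) that were called lower (left, blue) or higher (right, orange) with IMC under the averaged contrast, for the 25 lists in which at least 3 members and at least 2 times the background share were called in a direction, with the shares over all genes (14% lower, 14.2% higher) as dashed lines. Cholesterol synthesis reaches 100% on the lower side and cytosolic ribosomal proteins 85.9% on the higher side.

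The other 18 of the 43 lists did not meet both conditions in either direction. The counts below stand beside shares of 14.2% higher and 14% lower over all genes tested. Members higher and lower were 6 and 8 of 39 for fatty acid oxidation and PPARA targets, 3 and 4 of 18 for bile acid synthesis, 4 and 3 of 17 for bile acid transporters, 2 and 3 of 22 for apolipoproteins, and 2 and 3 of 21 for glucose and glycogen metabolism. Hormone receptors had 5 and 4 of 22, cysteine and taurine genes 3 and 3 of 11, phospholipid synthesis 4 and 2 of 16, AHR targets 1 and 0 of 8, and the Cyp4a family 2 and 0 of 4. Endoplasmic reticulum chaperones had 5 and 3 of 26, proteasome subunits 7 and 3 of 38, respiratory chain subunits 1 and 10 of 77, acute phase proteins 1 and 7 of 27, and cell cycle genes 0 and 4 of 25. Circadian clock genes had 1 and 4 of 18, iron handling 3 and 2 of 20, and fetal liver genes 2 and 0 of 7.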

How the data were processed

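RNA from 16 livers was sequenced in 4 groups of 4 libraries, and groups were taken from the sample titles. According to the study's methods, the authors trimmed reads with Trim Galore, checked them with FastQC, aligned them with STAR to mm10 and normalized with edgeR. The counting tool is not given in the sources used here, and read layout is given differently in labels and methods. The deposited signal values are gene counts divided by the authors' size factor of each library, and 1 read was worth 0.906 to 1.18, with 100% of values within 0.01 of a whole number of reads in each library. Levels of IMC and Vehicle libraries were compared within each diet. The table held 27212 rows for 24082 genes, because 430 Ensembl identifiers stood under several symbols with identical values, and 1 row was kept for each. Positions are those of GENCODE vM21 on GRCm38 (24069 genes matched), and promoters those of RefSeq. Reads in genes left out by the filter were 0.0627% to 0.126% of a library.

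limma 3.58.1 (R 4.3.3) was fitted to log2(value + 1) over all 16 libraries with a mean for each group and a mean-variance trend, with Benjamini-Hochberg adjustment over 12535 genes, and adjusted p-values are limma's unless another tool is named. This p-value sets a change against the spread between mice within groups. That spread is estimated for all 4 groups together and draws in part on other genes. Exact permutation tests exchanged labels within diets (two-sided, 4900 arrangements, smallest p 0.000408). Alternatives included whole reads recovered from the values and tested in edgeR 4.0.16 or DESeq2 1.42.0, and edgeR with upper-quartile scaling and both tools without library 15, which were chosen after seeing the data. Library 15 was left out there because its reads, each worth close to 1, were recovered with less certainty.

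The members and gene lists were chosen with earlier results of these data known, and some listed genes are those the study names for these livers, so their directions are not independent evidence. Named genes were the 12 largest rises and falls among consistent genes with a mean of at least 50, up to 6 called members with the smallest p-values in each list with at least 3 called members and at least 2 times the background share, the genes of TMA and choline oxidation, genes the study names, up to 5 genes with differing diets, and cell type markers. Predicted genes named Gm or Rik were counted and not named, and some named genes are not reported here.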

Additional observations from a re-analysis of the deposited data

Results flagged for a closer look

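In 4 of 80 checks of a group of 4 libraries, 1 library stood apart from the other 3 (Dixon's test), where chance gives about 1 in 20. In EtOH Vehicle, Gbp3 was at 200.3 in library 5 against 226 to 229.7 in the others, and Tuba8 was at 21 in library 1 against 49.1 to 55.3. In EtOH IMC, Gclc was at 10923 in library 13 against 6649 to 7116. Reads on genes were 9693199 in Pair IMC library 8, the library closest to Vehicle in cholesterol synthesis, against 11609067 to 11976719 in the other Pair IMC libraries. The checks covered reads and the 19 genes printed library by library. For some other genes EtOH IMC library 11 lay nearer to Vehicle than libraries 9, 13 and 15. Sult2a8 was at 663 against 70.1 to 74.7, Gsta1 at 173 against 673 to 1202, and Cdkn1a at 57.2 against 315 to 684. By list medians, library 11 was the lowest EtOH IMC library for interferon genes (-0.61) and within their range for cholesterol synthesis (-0.77). The cause was not tested.

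For 25 of 224 named genes the IMC effects of the diets differed (adjusted p-value under 0.05, limma), against 1.10% of all genes, and 5 of these genes were named for that difference. The effect was larger in ethanol-fed libraries for 21 of them and in pair-fed libraries for 4, and 9 had opposite signs. None of the 9 was called in both diets. The pair-fed effect was 0.07 for Cyp8b1 (adjusted p = 0.925, limma), and the ethanol-fed effect was -0.35 for Ugt1a9 (adjusted p = 0.118, limma). Given as the log2 effect in ethanol-fed minus that in pair-fed libraries, the difference was -2.99 for Cyp8b1, which makes cholic acid, -2.87 for Ntrk2, -2.47 for Mup15, -2.24 for Fam198a, -1.72 for Cyp2c39 and -1.71 for Ugt1a5. It was -1.60 for Cmah, -1.59 for Ugt1a9, -1.49 for Cyp2f2, -1.43 for Elovl5, -1.40 for Ugt3a1, -1.29 for Reln and -1.11 for Cyp2c40. It was -1.06 for Hao2, -1.02 for Acss3, -0.91 for Dmgdh, -0.84 for Uck1, -0.70 for Prlr and -0.47 for Ugt3a2. Positive differences were found for H2-Q4 at 0.68, Tap1 at 0.89, Bax at 0.93, Cbr1 at 1.01, Irgm2 at 1.04 and Cbr3 at 4.81. A difference between diets and one between low and high library numbers cannot be told apart.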

How the results depend on the processing

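The count of 3534 genes under the averaged contrast lay between 2905 and 3662 over the other settings, and that of 620 consistent genes between 517 and 744. Leaving out 1 library gave 2959 (without Pair IMC library 4) to 3750 (without Pair IMC library 8) called genes, 1456 to 1896 of them higher and 1503 to 1854 lower. It gave 647 (without Pair IMC library 4) to 1127 (without Pair IMC library 8) consistent genes, 309 to 547 higher and 338 to 580 lower, where fewer libraries make an overlap less likely by construction. The count of 138 genes whose diets differed was the least stable, at 81 with no filter on low values, 82 without the mean-variance trend, 340 with DESeq2 on whole reads, 72 and 256 with edgeR and DESeq2 without library 15, and 54 (without EtOH Vehicle library 5) to 168 (without EtOH IMC library 11) with 1 library left out. The cause was not tested. Of 184 called named genes 167 kept their call in each setting that gave them an adjusted p-value, 17 lost it in at least 1, and none reversed. With a mean of at least 100 only 160 of the 184 were compared, and with DESeq2 182. The share of higher genes among those called was 50.4%, and 43.3% to 55.5% in other settings, with a median over all genes of -0.031 to 0.023 on the log2 scale. Interferon genes called lower were 21 of those with a mean of at least 100, where fewer genes are tested. Growth hormone pathway genes called lower fell from 6 to 4 without Pair IMC library 2 and with terms for diet and IMC only, and higher UDP-glucuronosyltransferases from 6 to 4 without Pair IMC library 4. No paired analysis was possible because the library numbers in the labels are unique to each sample. With 4 libraries a group, the median standard error of a log2 change was 0.10.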
